A study of Mus musculus with 6 samples.

Results

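The SLC25 family holds the carriers that move metabolites across the inner membrane of mitochondria. Its genes were followed here in the mouse B-cell line 230-238 with and without added FOG1. Members were all genes with a probe set on the array whose annotated symbol, as its single symbol, starts with Slc25a and a digit. There were 46 such genes among 19937 genes with a single-symbol probe set. They were measured by 50 probe sets, and each gene is described by its brightest. Slc25a5 had 3 probe sets, Slc25a36 and Slc25a40 had 2 each, and the remaining members had 1.

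The study compared cells infected with a plasmid for green fluorescent protein (group GFP, 3 arrays) with cells infected with a plasmid for that protein together with FOG1 (group GFP+FOG1, 3 arrays). FOG1, encoded by Zfpm1, is a partner of GATA transcription factors. In both groups RNA was taken after 3 days of culture, a sort of GFP-positive cells and 4 further days of culture. The GFP plasmid, the sort and the cell line are thus shared by all 6 arrays, and the control measures the vector without added FOG1. A single cell line was used, and the labels call the arrays of a group biological replicates without saying whether infections were separate, so p-values cover the spread between these samples, which may be technical.

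SLC25 carriers share a fold built from a repeated pair of membrane-spanning helices, and most exchange a substrate of the mitochondrial matrix for another from the cytosol. They feed the matrix with phosphate, ADP, amino acids, cofactors and iron and export ATP, citrate and malate. Proliferating B cells draw on them for respiration and for building blocks made in mitochondria, and a few members, such as the iron importer Slc25a37 and the glycine carrier Slc25a38, are known for their part in heme synthesis in red cell precursors, where GATA factors act.

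All values are log2 signals, on which a difference of 1 is a doubling of signal. Signals of different probe sets depend on their probes, so each gene was compared with itself between groups and not with other genes. Zfpm1 read 9.41, 9.49 and 9.43 on the GFP arrays and 10.21, 10.16 and 10.17 on the GFP+FOG1 arrays. It was 0.74 higher in GFP+FOG1, or 1.67-fold, and each array went with its label. The GFP arrays thus held a Zfpm1 signal above the median of all values. Below, without FOG1 means without added FOG1. Of 8 measured B-lineage markers all reached the median of all values, 6.999, while 6 of 22 markers of other blood and stromal cells did so. The mean of the B-lineage markers lay lower on the FOG1 arrays (11.86 to 11.92) than on the GFP arrays (11.94 to 11.98). Cd79a was at -0.41 (limma adjusted p = 0.0884) and Cd79b at -0.16, with separate groups for both. Ebf1, Pax5, Vpreb1, Igll1, Blnk and Cd22 lay between -0.02 and 0.04 with overlapping groups, and the median of the list was -0.01. The part of this difference in the values below was not tested. On the first principal component over all probe sets GFP+FOG1 replicate 1 lay nearest to the GFP arrays, at 1.15 against 17.0 and 24.3 for the other FOG1 arrays and -16.1 to -11.4 for GFP. Among the SLC25 genes this array was the FOG1 array closest to the GFP mean for 23 of 46, beside 15 for replicate 2 and 8 for replicate 3. The median of their differences from the GFP mean was 0.003 on this array, -0.022 on replicate 2 and 0.012 on replicate 3. No such count over all probe sets is given, so the 23 does not set the family apart. The stromal markers also differed between arrays, as given below for Slc25a24.

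A single SLC25 gene passed the test. Slc25a23, a calcium-regulated carrier that exchanges ATP-Mg for phosphate, rose 1.38-fold with FOG1. The other 45 did not pass, so 1 of 46 members rose and 0 fell at an adjusted p below 0.05 (limma, Benjamini-Hochberg over all 34760 probe sets), against 0.224% of all probe sets called in either direction 0.104% called higher and 0.121% called lower. At an unadjusted p below 0.05 there were 7 members, 4 higher and 3 lower, or 15.2% in all. Among all probe sets 12.5% did so, 5.55% higher and 6.94% lower. The median log2 change of the family was -0.003, beside -0.010 over all probe sets, and it was 0.01 after quantile normalization and 0.02 after each array was centred on its median.

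**Figure D1:**
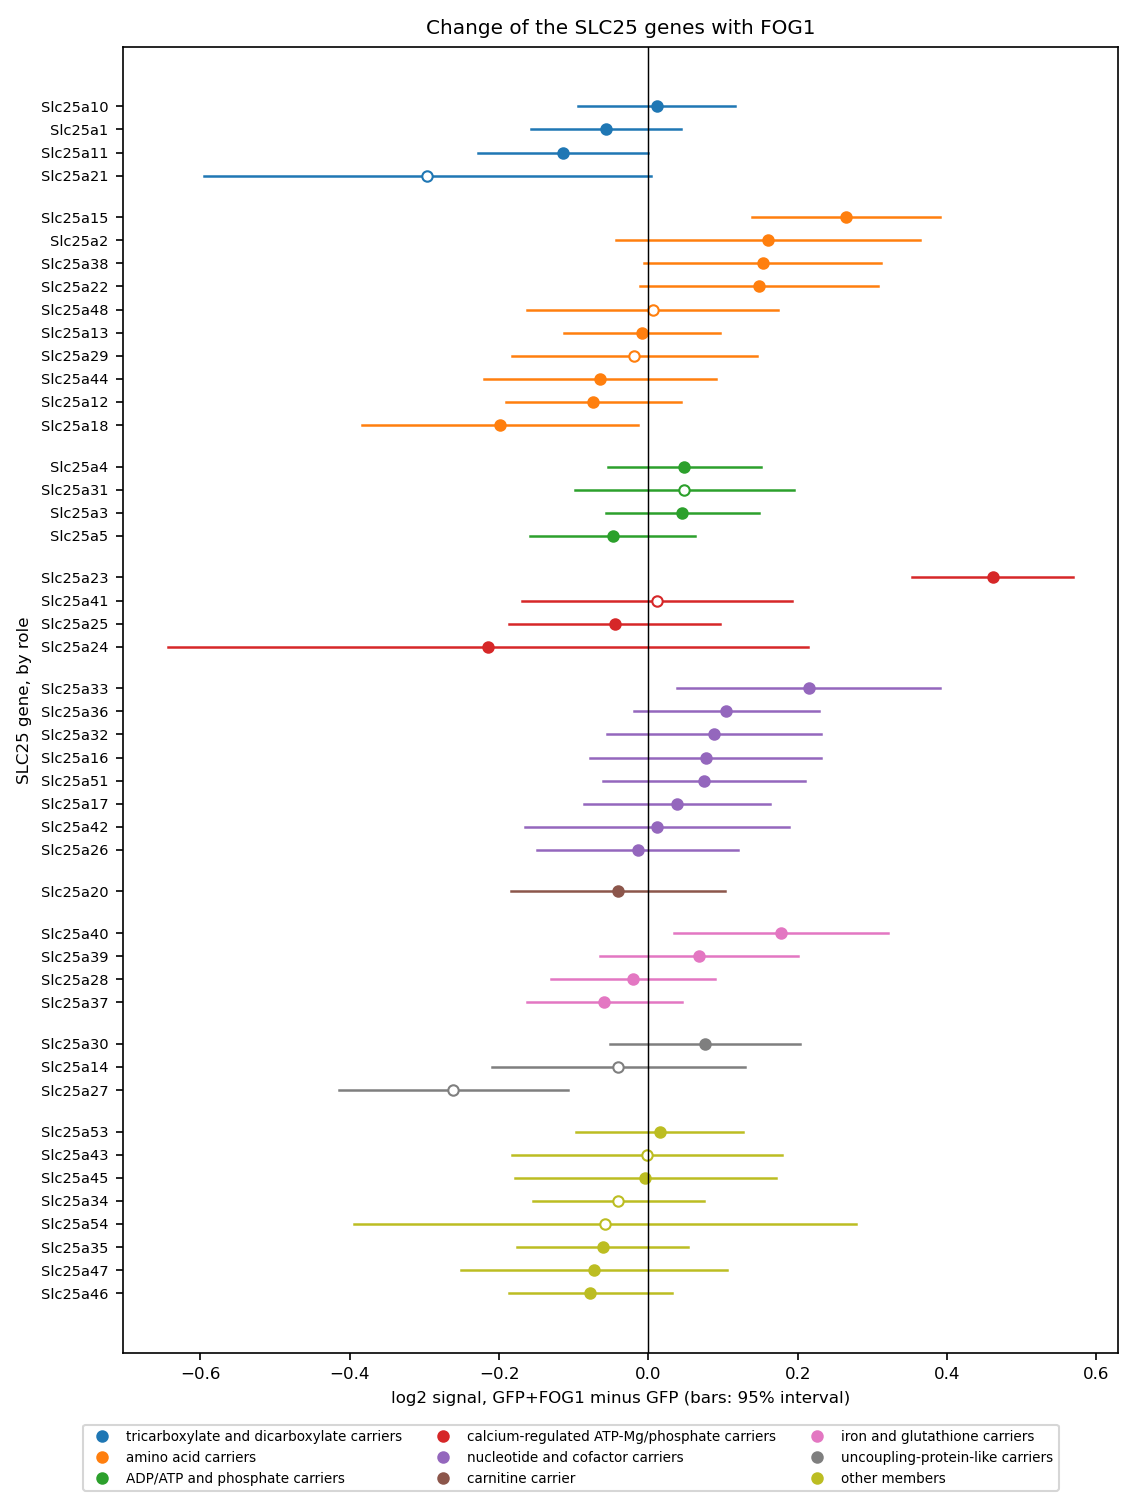
Log2 change (GFP+FOG1 minus GFP, x axis) of each of the 46 SLC25 genes (y axis, grouped by role in colours), with 95% intervals from limma as bars; filled points have a mean signal at or above 6.999 and open points lie below it. Slc25a23 lies at 0.46, with its whole interval above 0.35, while the other points lie between -0.30 and 0.26.

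The signals of Slc25a23 were 7.91, 7.85 and 7.90 on the GFP arrays and 8.37, 8.36 and 8.31 on the GFP+FOG1 arrays. The FOG1 arrays all lay above the GFP arrays, and the lowest of them exceeded the highest GFP array by 0.40. The group means were 7.89 ± 0.03 and 8.35 ± 0.03 (SD, n = 3 each), a difference of 0.46 (SE 0.045, 95% interval 0.35 to 0.57; limma adjusted p = 0.0248). The gene ranked 42 of 34760 probe sets by p. Its estimate was stable in size but its call was not: leaving out any 1 of the 6 arrays gave 0.44 to 0.48 with adjusted p from 0.0899 to 0.146, above the threshold each time. With fewer arrays the number of all probe sets called also dropped, from 78 to between 17 and 38.

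**Figure D2:**
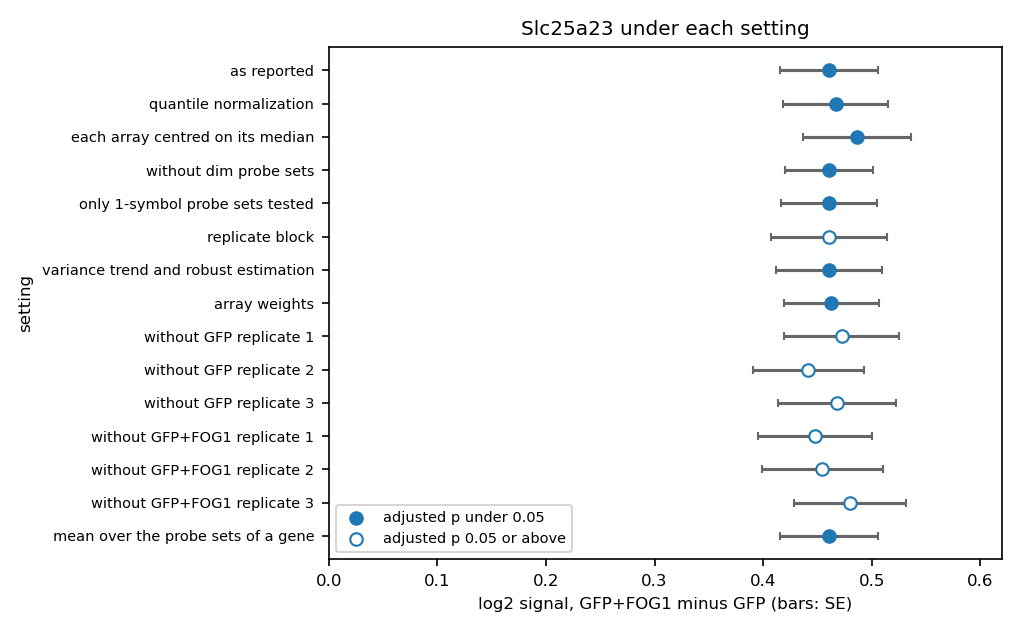
Log2 change of Slc25a23 (x axis, GFP+FOG1 minus GFP; bars are the SE) as reported and under each of 14 other settings (y axis); filled points have an adjusted p below 0.05. All estimates lie between 0.44 and 0.49, and the 7 open points are the replicate block and the 6 fits without 1 array.

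FOG1 acts through GATA factors, which bind short GATA motifs, so the sequence around the start of Slc25a23, the member that rose, is shown with such motifs marked. RefSeq (GRCm38.p6) gives 2 windows of 300 bases for this gene, from 250 before to 50 after a start, which lie close together on the minus strand of chromosome 17. The window at chr17:57059793-57060092, written 5′ to 3′ along the gene, reads as follows, with the motif in capitals.
Slc25a23: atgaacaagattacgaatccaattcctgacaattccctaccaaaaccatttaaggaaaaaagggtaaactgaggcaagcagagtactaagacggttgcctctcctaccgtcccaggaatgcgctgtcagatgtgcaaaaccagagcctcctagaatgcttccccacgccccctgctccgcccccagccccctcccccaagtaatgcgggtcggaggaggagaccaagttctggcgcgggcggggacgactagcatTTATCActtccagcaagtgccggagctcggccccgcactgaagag
The search covered AGATAA as well as AGATAG, and TGATAA as well as TGATAG, on both strands, and the match here is TGATAA on the opposite strand, just after the start. At least 1 match was held by 29.8% of all 32851 windows. Of the 46 windows found for 36 of the SLC25 genes 10 did, or 21.7%. These windows belonged to 9 genes, since both windows of Slc25a23 held the same site. Of the 9 genes Slc25a23 alone passed, and the others included Slc25a4, at a log2 change of 0.05, and Slc25a21, at -0.30. The windows of the related genes Slc25a24 and Slc25a25 held none, and Slc25a41 had no window. A match describes these letters only.

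The genes next to Slc25a23 on chromosome 17 were read as well, a choice made after its value was seen. Of the 4 nearest measured genes on each side none passed. The adjoining genes are Slc25a41, at a log2 change of 0.01 (95% interval -0.17 to 0.19), and Crb3, a cell polarity gene, at 0.10 (-0.13 to 0.33). Dennd1c, a regulator of membrane traffic, was at -0.22 with groups that did not overlap (limma adjusted p = 0.203). Gtf2f1 and Khsrp, at 0.11 and 0.09, also had FOG1 arrays that all lay above the GFP arrays, and for Tubb4a, a tubulin gene at -0.07, they all lay below. Groups were thus separate for 4 of these 8 neighbours, beside 19.6% of all probe sets.

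Slc25a23 belongs with Slc25a24, Slc25a25 and Slc25a41 to the ATP-Mg/phosphate carriers, which adjust the adenine nucleotide content of the matrix, most of them through a calcium-binding part that faces outward. Of these 4 genes 1 rose. Slc25a25 read 7.59, 7.65 and 7.47 on the GFP arrays and 7.50, 7.55 and 7.52 with FOG1. Its groups overlapped, at a difference of -0.05 (95% interval -0.19 to 0.10; limma adjusted p = 0.768). The intervals of Slc25a25 and Slc25a41 both end below the lower bound of Slc25a23, though the difference between genes was not tested. Slc25a41 lay below 6.999, where part of a signal can be background and a change is understated.

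Slc25a24 varied most between arrays of a group among the 46 genes. It read 7.52, 7.57 and 7.67 on the GFP arrays and 7.70, 7.45 and 6.96 on the GFP+FOG1 arrays. The FOG1 group thus held both its highest and its lowest array, and the difference of -0.21 had a wide interval (-0.64 to 0.21; limma adjusted p = 0.643). Without GFP+FOG1 replicate 3 the difference was -0.01, and without GFP+FOG1 replicate 1 it was -0.38. The 3 brighter markers of stromal cells moved along the same arrays. Pdgfrb, a growth factor receptor of stroma, read 8.97, 8.59 and 7.59 on the FOG1 arrays and 8.42, 8.54 and 8.65 on the GFP arrays. Col1a1, a collagen gene, read 9.90, 9.61 and 8.99 with FOG1 and 9.53 to 9.73 without. Both were highest on GFP+FOG1 replicate 1 and lowest on GFP+FOG1 replicate 3, as was Slc25a24. All 5 listed stromal markers were measured and 3 of them, Pdgfrb, Col1a1 and Col1a2, reached 6.999. The dim Dcn and Lum did not follow this order, and Dcn was highest on GFP+FOG1 replicate 3, at 5.92 against 5.84 and 5.79 on the other FOG1 arrays. The mean of the list ran from 7.42 to 7.58 on the GFP arrays and from 7.11 to 7.74 on the FOG1 arrays. Fewer cells of a type and less RNA per cell cannot be told apart in such bulk samples, and the part of the stromal signal in Slc25a24 was not tested. Slc25a23 spanned only 0.07 over the same 3 FOG1 arrays.

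**Figure D3:**
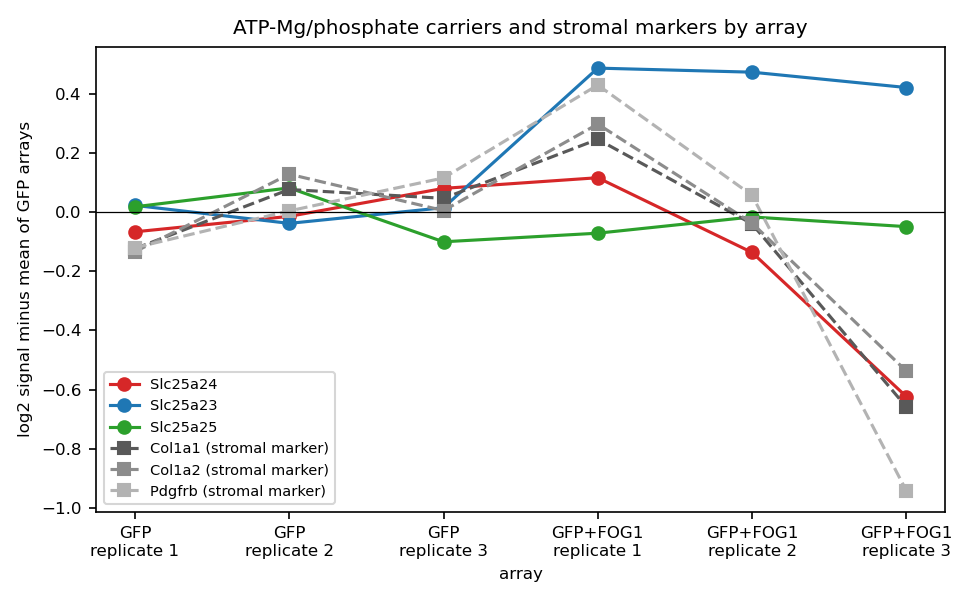
Log2 signal minus the mean of the GFP arrays (y axis) on each array (x axis) for 3 ATP-Mg/phosphate carriers (solid lines) and 3 stromal markers (dashed lines). Slc25a24 follows the stromal markers down to GFP+FOG1 replicate 3, while Slc25a23 is near 0.46 on all 3 FOG1 arrays.

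Carriers of amino acids numbered 10, with median -0.001, which became 0.02 under either other scaling, and none passed. The strongest was Slc25a15, the ornithine carrier of the urea cycle, which read 8.89, 8.93 and 8.93 without FOG1 and 9.12, 9.17 and 9.26 with it. Its groups did not overlap, and the difference of 0.26 (SE 0.052, 95% interval 0.14 to 0.39) missed the threshold (limma adjusted p = 0.171). It was the second smallest p of the family. Its close relative Slc25a2, also an ornithine carrier, read 7.48, 7.73 and 7.72 and then 7.80, 7.71 and 7.89, with overlapping groups (0.16; adjusted p = 0.477; 0.08 without GFP replicate 1).

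The glutamate carriers pointed in opposite directions without passing. Slc25a22 read 8.24, 8.25 and 8.25 on the GFP arrays and 8.29, 8.37 and 8.52 with FOG1 (0.15, or 0.08 without GFP+FOG1 replicate 3; limma adjusted p = 0.422), and the FOG1 arrays all lay higher. Slc25a18 read 8.42, 8.67 and 8.45 and then 8.30, 8.37 and 8.26 (-0.20, or -0.12 without GFP replicate 2; adjusted p = 0.376), and all FOG1 arrays lay lower. Slc25a12, an aspartate/glutamate exchanger of the malate-aspartate shuttle, read 10.28, 10.39 and 10.28 against 10.26, 10.24 and 10.23 (-0.07; adjusted p = 0.564). Its groups were apart by little, and its sister gene Slc25a13 was at -0.01. Slc25a38, which brings glycine to the first step of heme synthesis, read 8.96, 8.93 and 8.78 and then 9.09, 8.97 and 9.06 (0.15; adjusted p = 0.408). Its groups were separated by only 0.01, and the difference was 0.10 without GFP replicate 3. The carriers of branched-chain and of basic amino acids, Slc25a44 and Slc25a29, were at -0.07 and -0.02, and Slc25a48 was at 0.01.

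Among the 4 carriers of iron and glutathione none passed. The mitoferrin gene Slc25a37, the iron importer induced in red cell precursors, read 9.86, 9.91 and 9.87 on the GFP arrays and 9.84, 9.84 and 9.79 with FOG1. Its groups did not overlap, and its difference of -0.06 had a 95% interval from -0.16 to 0.04 on the deposited values (limma adjusted p = 0.598). The difference was -0.03 after median centring and -0.09 after quantile normalization. The second mitoferrin gene, Slc25a28, was at -0.02. Slc25a40, a glutathione carrier, read 7.77, 7.76 and 7.81 and then 7.85, 8.02 and 7.998. The FOG1 arrays were all higher, by 0.18 on average (95% interval 0.03 to 0.32; adjusted p = 0.333). A dimmer second probe set of Slc25a40 gave 0.11 with overlapping groups. Slc25a39, the other glutathione carrier, was at 0.07.

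**Figure D4:**
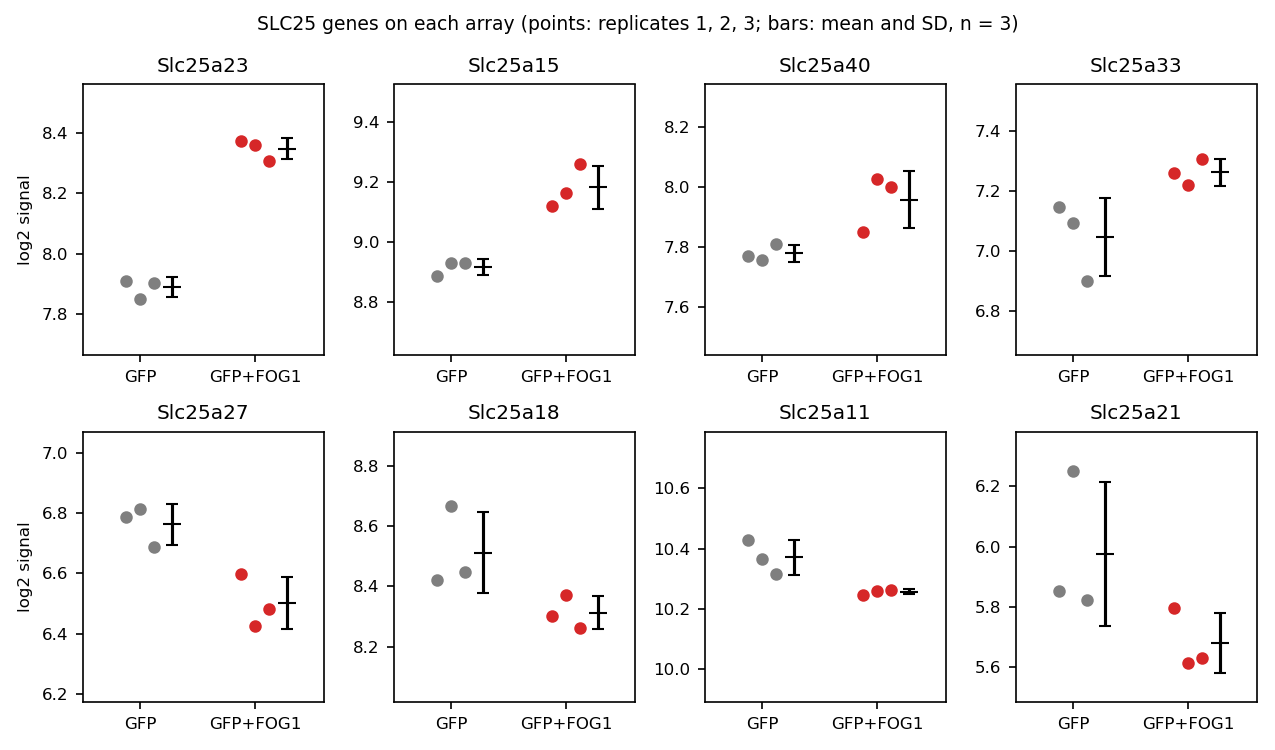
Log2 signal (y axis; each panel spans 0.9) of 8 SLC25 genes on the 3 GFP arrays (grey) and the 3 GFP+FOG1 arrays (red), with the mean and SD of each group beside the points. The panels show the 8 members with the smallest p (limma), a choice that favours separate groups. The groups are separate in all 8 panels, beside 15 of the 46 members and 19.6% of all probe sets. The widest gap is that of Slc25a23, 0.40, and of these genes Slc25a23 alone had an adjusted p below 0.05.

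The 8 carriers of nucleotides and cofactors had 7 positive log2 changes and a median of 0.08, which was 0.05 after quantile normalization and 0.10 after median centring. None passed. Slc25a33, a pyrimidine nucleotide carrier, read 7.15, 7.09 and 6.90 without FOG1 and 7.26, 7.22 and 7.31 with it (0.21, 95% interval 0.04 to 0.39; limma adjusted p = 0.339; 0.14 without GFP replicate 3). Slc25a36, the related pyrimidine carrier, read 10.22, 10.17 and 10.21 and then 10.23, 10.34 and 10.35 (0.10; adjusted p = 0.457). Both had FOG1 arrays that all lay above the GFP arrays, by a gap of 0.07 for Slc25a33 and of 0.004 for Slc25a36, whose second probe set was at 0.04. The folate and FAD carrier Slc25a32 was at 0.09, Slc25a51, which imports NAD, at 0.07, and Slc25a16, linked to coenzyme A, at 0.08. Slc25a17, a peroxisomal member, was at 0.04, Slc25a42, a coenzyme A carrier, at 0.01 and the S-adenosylmethionine carrier Slc25a26 at -0.01.

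The carriers that serve oxidative phosphorylation had narrow intervals around small differences. Slc25a3, the phosphate carrier, read 12.41, 12.43 and 12.44 on the GFP arrays and 12.43, 12.50 and 12.48 with FOG1 (0.05, 95% interval -0.06 to 0.15; limma adjusted p = 0.681). Slc25a4, an ADP/ATP exchanger, read 10.56, 10.60 and 10.61 and then 10.63, 10.67 and 10.62 (0.05, -0.05 to 0.15; adjusted p = 0.662). For neither gene did the interval reach 0.2, and only Slc25a4 had separate groups. Slc25a5, the ADP/ATP exchanger of proliferating cells, read 13.26, 13.29 and 13.26 and then 13.26, 13.17 and 13.24 on its brightest probe set (-0.05; adjusted p = 0.688). Its other probe sets gave 0.03 and 0.04, and the mean of all 3 gave 0.004, so its sign depended on the probe set. The table gives these probe sets the same transcripts, so which copy of the gene each one reads is uncertain. Slc25a31, the exchanger known from testis, lay below 6.999 and was at 0.05.

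The 4 carriers of citrate and dicarboxylates had 3 negative changes and a median of -0.09, with none past the threshold. Slc25a11, which exchanges oxoglutarate for malate in the malate-aspartate shuttle, read 10.43, 10.37 and 10.31 without FOG1 and 10.25, 10.26 and 10.26 with it. All FOG1 arrays lay lower, at a difference of -0.11 (SE 0.047; limma adjusted p = 0.400). Slc25a1, which exports citrate for fatty acid synthesis, read 10.83, 10.80 and 10.84 and then 10.79, 10.75 and 10.77 (-0.06; adjusted p = 0.601), also with separate groups. Slc25a21, a carrier of oxodicarboxylates, read 5.85, 6.25 and 5.82 and then 5.79, 5.61 and 5.63 (-0.30; adjusted p = 0.402). This was the most negative value of the family, from a dim probe set whose GFP arrays spanned 0.43, and it was -0.16 without GFP replicate 2. The dicarboxylate carrier Slc25a10 was at 0.01 and turned slightly negative under quantile normalization, where all 4 changes were negative.

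Of the 3 members named after their likeness to uncoupling proteins, Slc25a27, known from neurons, had the smallest p among the genes that were lower. It read 6.79, 6.82 and 6.69 on the GFP arrays and 6.60, 6.43 and 6.48 with FOG1, so its groups did not overlap. The difference was -0.26 (SE 0.064, 95% interval -0.41 to -0.11; limma adjusted p = 0.229), at signals below 6.999. Slc25a14 and Slc25a30 were at -0.04 and 0.08. The carnitine carrier Slc25a20, which brings fatty acids to oxidation, was at -0.04. Of the 8 remaining members none passed and none had separate groups. Slc25a46, an outer membrane protein that shapes mitochondria, had the smallest p of these and read 10.07, 10.13 and 10.11 and then 10.001, 10.07 and 10.005 (-0.08; adjusted p = 0.517). The others, Slc25a34, Slc25a35, Slc25a43, Slc25a45, Slc25a47, Slc25a53 and Slc25a54, ranged from -0.07 to 0.02.

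Taken by size, 33 of the 46 genes differed by less than 0.1, beside 14126 of all 19937 genes taken at their brightest probe set. A difference of more than 0.2 was held by 6, or 13.0% of the family. That compares with 12.4% of all probe sets and 6.35% of all genes taken at their brightest probe set. The groups did not overlap for 15 members, 8 higher and 7 lower with FOG1. That is 32.6%, beside 19.6% of all probe sets (9.13% higher, 10.5% lower) and 20.8% of all genes at their brightest probe set. Of the 36 members whose signal reached 6.999, 13 had separate groups, or 36.1%, beside 25.6% of all genes that reached this level. The 95% intervals, taken gene by gene, lay within 0.5 of no change, or 1.41-fold, for 43 members, the exceptions being Slc25a23, Slc25a24 and Slc25a21. They lay within 0.25, or 1.19-fold, for 33. Of all 19937 genes at their brightest probe set, 19206 had intervals within 0.5 and 13003 within 0.25.

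Genes around the carriers were read from 5 lists of related mitochondrial proteins, with 52 measured genes. In limma 0 passed, where 0.224% of all probe sets did, and 4 had an unadjusted p below 0.05, 3 of them higher, or 7.69% against 12.5% of all probe sets. SLC25 proteins that carry other symbols, the uncoupling protein genes Ucp1 and Ucp3 and the outer membrane proteins Mtch1 and Mtch2, were between -0.06 and 0.06. Ucp1 and Ucp3 lay below 6.999, and Ucp2, also on this list, was not measured by a single-symbol probe set. The 15 genes of the route that imports carriers into mitochondria had 13 positive changes, or 11 after quantile normalization, and a median of 0.05. All 15 reached the median of all values, and of all 10582 genes that did so 5954 had positive changes. The mean of these 15 genes overlapped between groups, at 9.11 to 9.21 on the GFP arrays and 9.18 to 9.24 on the FOG1 arrays. It was lowest on GFP replicate 1, so a shift of the whole list with FOG1 is not shown. On this list Timm10, a chaperone of the space between the membranes, was at -0.19 (adjusted p = 0.317) and the receptor genes Tomm20 and Tomm70a at 0.16 and 0.19 (0.384 and 0.419).

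Other inner membrane transporters had a median of -0.02 over 14 genes. Those with the smallest p were Sfxn4, a sideroflexin, at 0.18, Slc8b1, the sodium/calcium exchanger, at -0.11 and Sfxn1, the serine carrier, at 0.07. Outer membrane channels were at 0.02 to 0.03 except Vdac3, at 0.16 (limma adjusted p = 0.326). The 16 enzymes that make or use carrier substrates were all within 0.1 of no change, from the carnitine acetyltransferase gene Crat at -0.04 to the ATP synthase gene Atp5a1 at 0.07. They included Got1, Got2, Mdh1 and Mdh2 of the malate-aspartate shuttle, at -0.03 to 0.05, and Shmt2, of mitochondrial serine breakdown, at 0.07.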

How the data were processed

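RNA of 6 samples, 3 per group, was amplified from 100 ng and hybridised to an Affymetrix mouse gene array, per the labels' protocols. The values are log2 signals per probe set as deposited by the authors, and the log scale was read from their range, 3.12 to 14.07. The affy package is named without a version, per the submitters' processing notes. Background correction and normalization between arrays are, in the sources used here, not given. Array medians ran from 6.98 to 7.04, so changes are relative to the other probe sets. With 3 arrays per group, their number limits the precision.

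Gene names came from the annotation of the platform, and a match of Entrez identifiers to RefSeq changed 0 of them. All 34760 probe sets were fitted with limma 3.58.1 in R 4.3.3 (lmFit, eBayes, no block), with Benjamini-Hochberg adjustment over all of them and a threshold of 0.05. The fit was tested on simulated data. Each gene was taken at its brightest single-symbol probe set. Values on every array are given for members past the threshold, the 8 smallest p in each direction and 8 genes chosen by role. Lists, 9 roles of the family, 5 of related mitochondrial genes with up to 3 named members each and 6 of cell type markers, are described by counts and medians, without a set test. The members, lists and rules were chosen with earlier results of these data known. The neighbours of Slc25a23 were added after its value was seen. Alternatives were quantile normalization, median centring, no dim probe sets, single-symbol probe sets only, a replicate block, robust estimation with a variance trend, weights per array, each array left out, and means over all probe sets of each gene. Plots were made in matplotlib 3.10.9.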

Additional observations from a re-analysis of the deposited data

How the results depend on the processing

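Slc25a23 remained the only SLC25 gene called under quantile normalization, median centring, without dim probe sets, with single-symbol probe sets only, with a variance trend, with array weights and with means over probe sets. With 1 array left out the count of SLC25 genes called was 0 in each of the 6 fits, where 3 to 8 members had an unadjusted p below 0.05 (limma), and that of all probe sets was 17 to 38, against 78. With the replicate block they were 0 and 9, and Slc25a23, at 0.46, had an adjusted p of 0.176. Deviations of arrays with one replicate number correlated at -0.07, 0.01 and -0.04, so the numbers were not taken as pairs. The median of the family was 0.02 (0.0228) after median centring, which moved the median of all probe sets to 0.015, and -0.02 to 0.02 (-0.0200 to 0.0200) with 1 array left out. The count of genes whose groups did not overlap was 14 to 17 in the settings with all arrays and 46 genes. The replicate block, variance trend, array weights and single-symbol probe sets leave the array values as they were, so their count of 15 was fixed. Without dim probe sets the count was 13 of 36, fixed in the same way. With 1 array left out it was 16 to 22. There 3 arrays stand against 2, which separate more easily, so these counts cannot be compared with 15. No share over all probe sets is given for these settings. Of 292 values of the 21 named genes under the alternatives 284 kept their direction and their side of the threshold. The lost calls of Slc25a23 were 7, and 1 value turned sign, that of Slc25a5 over its 3 probe sets (0.004, exactly 0.0044). Part of this was fixed in advance. The replicate block, the variance trend and a smaller set of probe sets leave each log2 change as it was. So do means for genes with 1 probe set. Of the named genes only Slc25a23 was called under any setting, so the others had no call to lose. The cause of the moves given above was not tested, apart from fewer samples where an array was left out. Signals near background limit what can be seen for the 10 members below the median signal. A pseudocount was not run, since the values are on a log scale.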
